A study of Mus musculus with 3 samples.

Results

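Cdkn2a and Cdkn2b, the neighbouring genes of the INK4/ARF locus, were followed through one single-cell matrix. They were chosen by gene symbol and are 2 of 32287 rows in the matrix. Barcodes counted as cells from 500 detected genes and 1000 UMIs upward, unless over 20% of their UMIs were mitochondrial, and 14925 of 18116 were kept. A UMI is a random tag that marks 1 captured RNA molecule. The cells, named PC, came from mouse esophageal organoids of Trp53 floxed/floxed animals. An adenovirus carrying Cre and EGFP (Ad-Cre-EGFP) removed Trp53, and CRISPR/Cas9 was then used to knock out Cdkn2a. The dissociated organoid cells were cultured in DMEM with 10% FBS and Y-27632, a ROCK inhibitor, which was left out after 3 passages. They expressed Cas9 constitutively, received a barcode library by Lipofectamine 3000 and were expanded for 3 further passages. Live RFP-positive cells were then sorted. All cells therefore carry the same labelled treatment, and no untreated cells were analysed here. Whether every cell had lost Cdkn2a and Trp53 was not measured. The labels give neither the cut site in Cdkn2a nor the number of clones or animals, and PCN organoids, which involve Notch1, were not analysed here. Gene expression, barcode and Scar libraries are labelled for PC, and the matrix stands for 1 sample, so no replicate spread exists and no test was possible. Every interval below is a 95% interval that covers counting error only.

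The INK4 proteins p16Ink4a and p15Ink4b bind CDK4 and CDK6, keep them from cyclin D and so hold Rb in its growth-restraining form. Cdkn2a encodes p16Ink4a and, from another first exon and in another reading frame, p19Arf, which binds Mdm2 and stabilises p53. Cdkn2b encodes p15Ink4b, a known TGF-beta target. Polycomb complexes keep the locus silent in young tissue, culture and oncogene stress open it, and deletion of the locus is frequent in squamous carcinoma. Cells that have lost Rb or p53 function are known to carry high p16Ink4a or p19Arf RNA.

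In GENCODE M21 (GRCm38) Cdkn2a lies on the minus strand at chr4:89274471-89294653 and Cdkn2b on the same strand at chr4:89306299-89311039, with 11645 bases between them. The p16Ink4a and p19Arf transcripts start 12461 bases apart and share 2 of their 3 exons. The shared 575 exonic bases are 67.5% of the p16Ink4a transcript and 64.2% of the p19Arf transcript, and both transcripts end in the same last exon. The matrix counts reads per gene, so Cdkn2a UMIs count both transcripts together. The exon junctions show how one second exon serves 2 proteins and how close its Cdkn2b counterpart is. Each line gives the last 30 coding bases of exon 1 in lower case and the first 30 bases of exon 2 in capitals, minus strand, GRCm38.
p16Ink4a, chr4:89281986-89282015 joined to chr4:89276956-89276985: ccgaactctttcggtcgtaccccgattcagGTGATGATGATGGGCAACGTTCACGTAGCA
p19Arf, chr4:89294334-89294363 joined to chr4:89276956-89276985: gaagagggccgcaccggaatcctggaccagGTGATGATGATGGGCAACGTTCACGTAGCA
p15Ink4b, chr4:89310666-89310695 joined to chr4:89307285-89307314: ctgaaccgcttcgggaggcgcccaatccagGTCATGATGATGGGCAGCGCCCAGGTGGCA
Exon 1 of p16Ink4a ends with 0 bases of an open codon and exon 1 of p19Arf with 1, so the same capitals are read in different frames. The 168 codons of p16Ink4a and the 169 of p19Arf thus share RNA sequence but not protein sequence. Between p16Ink4a and p15Ink4b, 24 of the 30 capital bases are identical. The longest identical run between the p16Ink4a and p15Ink4b transcripts is 23 bases. Within their last 400 bases it is 10, so reads near those 3′ ends can be told apart. The p19Arf transcript was not compared in this way.

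The 3 start sites have unlike upstream sequences, shown here because the data join transcripts from all of them. The windows run from 250 to 36 bases before each RefSeq start (GRCm38.p6, minus strand), and capitals mark the motifs found.
p19Arf, chr4:89294655-89294869: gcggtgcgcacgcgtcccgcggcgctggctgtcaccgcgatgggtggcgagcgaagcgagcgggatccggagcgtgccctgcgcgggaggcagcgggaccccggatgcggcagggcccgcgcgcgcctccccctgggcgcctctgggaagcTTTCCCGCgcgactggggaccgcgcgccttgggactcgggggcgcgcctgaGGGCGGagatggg
p16Ink4a, chr4:89282228-89282442: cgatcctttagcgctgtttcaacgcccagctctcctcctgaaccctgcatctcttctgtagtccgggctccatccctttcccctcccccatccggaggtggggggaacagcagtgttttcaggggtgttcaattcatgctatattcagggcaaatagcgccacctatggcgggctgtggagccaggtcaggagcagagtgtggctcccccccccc
p15Ink4b, chr4:89311068-89311282: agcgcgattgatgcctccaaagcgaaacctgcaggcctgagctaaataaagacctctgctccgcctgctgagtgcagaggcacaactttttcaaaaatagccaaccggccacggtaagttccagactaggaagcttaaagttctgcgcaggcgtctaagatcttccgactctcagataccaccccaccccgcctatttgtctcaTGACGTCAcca
The p19Arf window holds 35 CpG and is 78.6% GC, which puts it at the 99.1th percentile for CpG among 32851 windows of the same length. The p16Ink4a window holds 7 CpG (62.2th percentile) and the p15Ink4b window 11 (72.7th percentile). Both strands were searched for the cAMP response element TGACGTCA and the E2F elements TTTCCCGC and TTTGGCGC. They were also searched for the GC box, whose letters are GGGCGG. The E-box, spelled CACGTG, and the TATA box completed the set, the latter searched as the letters TATAAA. The p19Arf window had 1 GGGCGG, found in 27.7% of all windows, and 1 TTTCCCGC, found in 0.743%. The p15Ink4b window had 1 TGACGTCA, found in 1.099%, and the p16Ink4a window had none of the 6. These matches describe letters only.

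Both genes were read at high levels. Cdkn2a had 29067 of the 45443280 UMIs, or 639.6 per 1000000 UMIs (CPM; 632.3 to 647.0). It ranked 204th by UMIs among the 20908 genes with a UMI. Cdkn2b had 9556 UMIs, or 210.3 CPM (206.1 to 214.5), and ranked 715th. Cdkn2a thus gave 3.04 UMIs for each Cdkn2b UMI. Each UMI marks a captured transcript end, so counts were not divided by length, and how well each RNA is captured is unknown. The Cdkn2a reads do not check the knockout, because a Cas9 cut can leave the RNA and its 3′ end in place. For Trp53, with 2126 UMIs, the labels do not say which part Cre removed, so its reads were not used as a check.

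The genes around the locus were also measured. Mtap, the methionine salvage enzyme gene that is often deleted together with CDKN2A in human tumours, had 10242 UMIs (225.4 CPM). The noncoding gene Gm12606, which begins just past the 3′ end of Cdkn2a on the same strand, had 105 UMIs (2.31 CPM). Dmrta1 and Elavl2, on the other side, had 0 UMIs, with an upper limit of 0.0812 CPM. Among the other CDK inhibitors, Cdkn1a (p21) stood at 76.3 CPM, Cdkn1b (p27) at 68.7, Cdkn2d (p19Ink4d) at 41.4, Cdkn2c (p18Ink4c) at 13.8, the phosphatase gene Cdkn3 at 11.6 and Cdkn1c (p57) at 1.58. All 6 were below Cdkn2b.

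To compare cells at equal depth, every cell with at least 1500 UMIs was thinned at random to 1500, which left out 1644 shallower cells and kept 13281. At that depth 53.4% of cells (52.5 to 54.2) had a Cdkn2a UMI and 25.6% (24.8 to 26.3) a Cdkn2b UMI. Without thinning the shares were 67.8% and 41.4% of all 14925 cells. For Cdkn2a, 6190 cells had 0 UMIs, 3972 had 1, 1836 had 2, 767 had 3 and 298 had 4, and the highest cells, 3 in number, had 10. For Cdkn2b, 9886 cells had 0 UMIs, 2756 had 1, 526 had 2 and 93 had 3, and the maximum was 5. At these low counts per cell a separate high group could not be seen in the distribution. The variance of thinned UMIs was 1.497 times the mean for Cdkn2a and 1.14 times for Cdkn2b. For the 2605 genes that averaged 0.1 or more UMIs per thinned cell the median was 1.049. The value of Cdkn2a was reached by 6.14% of those genes and that of Cdkn2b by 20.96%.

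**Figure D1:**
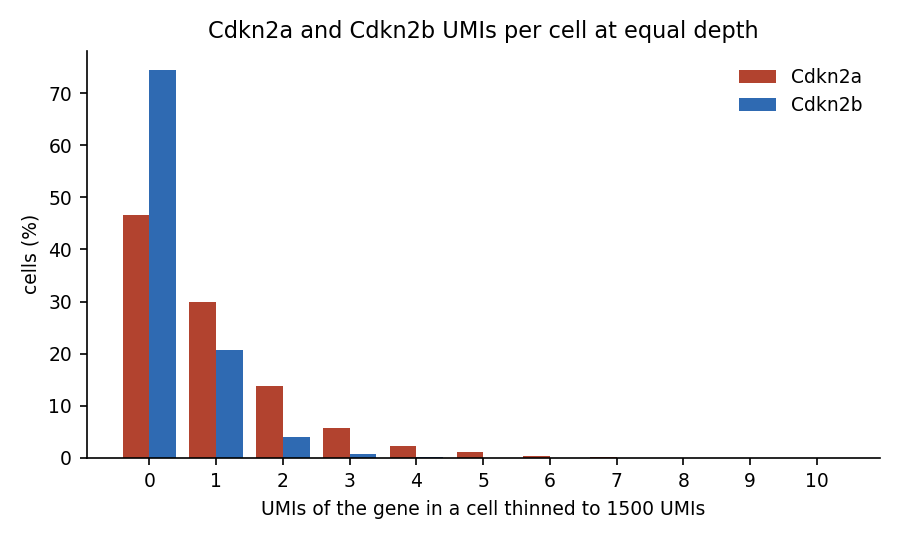
Share of 13281 cells (y axis, %) with each number of Cdkn2a (red) or Cdkn2b (blue) UMIs after thinning to 1500 UMIs (x axis). Cells with 0 UMIs are 46.6% for Cdkn2a and 74.4% for Cdkn2b, and few cells have more than 3 UMIs of either gene.

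No cell class known to lack both genes was at hand, so carry-over of free RNA was gauged with lineage genes. Vim, a mesenchymal filament gene, was found in 0% to 1.83% of thinned cells in the 7 clusters other than cluster 5, where it was found in 72.9%. Epcam, an epithelial adhesion gene, was found in 6.54% of cluster 5 and in 28.2% to 95.2% of cells elsewhere. In the lowest cluster the Cdkn2a share was 23.4% and the lowest Cdkn2b share was 14.1%, above the Vim shares outside cluster 5 and the Epcam share within it. The genes differ in abundance, with 157.4 CPM for Vim, 1085.6 for Epcam, 639.6 for Cdkn2a and 210.3 for Cdkn2b over all cells. Both members were also found in every cluster. These shares therefore cannot show how much Cdkn2a or Cdkn2b RNA was carried over. The endothelial genes Cdh5 and Emcn and the immune gene Tyrobp had 0 UMIs and Ptprc had 1, and only Cd68 (7.46 CPM) of the 8 immune and Egfl7 (6.18 CPM) of the 8 endothelial markers passed 2 CPM.

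The level of Cdkn2a differed with the total UMIs of a cell. In cells of 1000 to 1499 UMIs it was 254.5 CPM (233.1 to 277.3), in cells of 1500 to 1999 it was 368.9, in cells of 2000 to 2999 it was 561.9 and in cells of 3000 to 3999 it was 725.0 (711.2 to 738.9). At 4000 to 5999 UMIs it was 735.6 CPM (720.8 to 750.8), and in the 309 deepest cells it was lower again, at 629.0 (596.2 to 663.1). Cdkn2b varied less, from 171.8 CPM (154.3 to 190.7) in the shallowest cells to 229.7 (222.1 to 237.6) at 3000 to 3999 UMIs. It was lowest in the deepest cells, at 161.4 CPM (145.0 to 179.1). The number of Cdkn2a UMIs per Cdkn2b UMI accordingly went from 1.48 (1.29 to 1.70) in the shallowest cells to 3.90 (3.47 to 4.39) in the deepest. Comparing cells of 1000 to 1499 UMIs with those of 3000 to 3999, the ratio of CPM was 0.351 (0.321 to 0.383) for Cdkn2a and 0.748 (0.668 to 0.835) for Cdkn2b. A ratio counted as past the rule where it was at least 2-fold, the higher level at least 10 CPM and the Poisson intervals apart. Of 9065 genes compared, 3.51% were lower and 11.1% higher in the shallow cells by that rule. The Cdkn2a ratio lay at percentile 1.21 of all genes and that of Cdkn2b at percentile 20.04. The shallow cells also differed in signs of RNA quality: Malat1, a nuclear RNA, was at 45343 CPM there against 18151 CPM at 3000 to 3999 UMIs, and the median mitochondrial share was 3.49% against 2.74%. The kinds of cells differed too: of the 1644 shallow cells, 854 were in cluster 1 and 529 in cluster 7, both low in Cdkn2a. Mesenchymal markers summed to 172.3 CPM in the shallow cells and 422.7 CPM at 3000 to 3999 UMIs. Of the 309 deepest cells, 126 were in cluster 3, the cycling cells. G2/M markers summed to 2158.4 CPM in the deepest cells and 777.0 CPM at 3000 to 3999 UMIs. The part of RNA quality and of cell kinds in the Cdkn2a level was not tested.

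**Figure D2:**
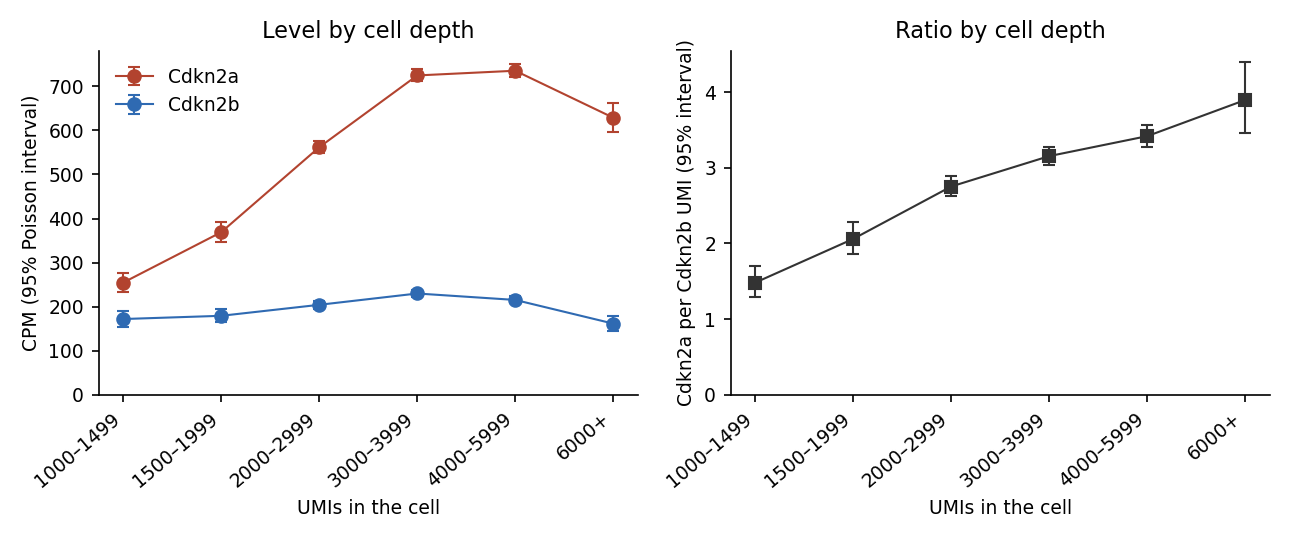
Level of Cdkn2a (red) and Cdkn2b (blue) in CPM (left) and Cdkn2a UMIs per Cdkn2b UMI (right) in cells grouped by total UMIs (x axis), with 95% counting intervals. Cdkn2a goes from 254.5 CPM in the shallowest cells to 725.0 at 3000 to 3999 UMIs, while Cdkn2b stays between 161.4 and 229.7 CPM.

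Cdkn2a and Cdkn2b UMIs were found in the same cells more often than their shares alone would give. At equal depth 2030 cells had both, 5061 had Cdkn2a alone, 1365 had Cdkn2b alone and 4825 had neither. Independence would give 1812.7 cells with both, so the co-detection ratio was 1.12 (1.08 to 1.17). The cells with both were 59.8% of the Cdkn2b cells and 28.6% of the Cdkn2a cells. The relation was graded. A Cdkn2b UMI was found in 22.1% (21.02 to 23.1) of cells with 0 Cdkn2a UMIs, 26.3% (25.0 to 27.7) with 1, 27.6% (25.6 to 29.7) with 2, 35.2% (31.8 to 38.7) with 3, 38.3% (32.7 to 44.0) with 4 and 42.7% (36.0 to 49.5) with 5 or more. The intervals overlapped between neighbours at 1 and 2 and from 3 upward. In the other direction, the share of cells with a Cdkn2a UMI went from 51.2% of 9886 cells with 0 Cdkn2b UMIs to 75.2% (66.2 to 82.9) of the 113 cells with 3 or more. The cells differed in depth before thinning, with a median of 2927 UMIs at 0 Cdkn2a UMIs and 3501 at 5 or more.

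The same ratio was set beside that of every other gene found in at least 1% of thinned cells, 9427 genes for each member. With Cdkn2a the median was 0.995 and 6.47% of genes reached 1.1, and 450 genes stood above Cdkn2b, at percentile 95.2. With Cdkn2b the median was 0.998 and 12.6% of genes reached 1.1, and 898 genes stood above Cdkn2a, at percentile 90.5. The genes were not matched by the share of cells they were found in. Ratios of genes found in few cells spread more by counting. The ratio of a gene found in many cells, such as Cdkn2a with 53.4%, has a lower ceiling. The percentiles and the highest ratios given below carry this limit. Among the neighbours, Mtap had 1.05 with each member, and Klhl9, a ubiquitin ligase adaptor gene, had 1.03 with Cdkn2a and 1.00 with Cdkn2b. Hacd4, a fatty acid elongation gene farther off on the chromosome, had 1.17 with Cdkn2a and 1.18 with Cdkn2b. Of 5 measured CDK inhibitors none reached 1.1 with either member. Cdkn1a, for instance, had 0.899 with Cdkn2a and 1.01 with Cdkn2b. The 7 genes of the Arf and p53 group had a median of 0.985 with Cdkn2a and 0.975 with Cdkn2b. Among 14 activators of the locus only Kdm6b, the H3K27 demethylase that opens it, reached 1.1, with 1.24 for Cdkn2b and 1.02 for Cdkn2a. Among 16 repressors only Hmga2 did, with 1.36 and 1.27.

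**Figure D3:**
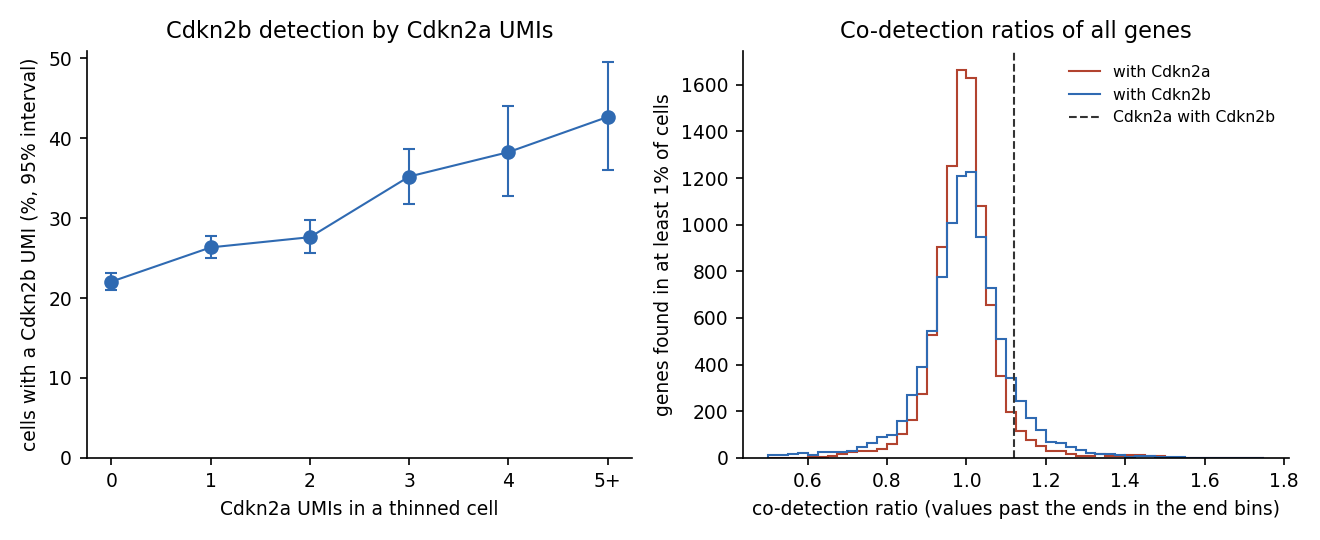
Left, share of thinned cells with a Cdkn2b UMI (y axis, %, 95% interval) by Cdkn2a UMIs in the cell (x axis), from 22.1% at 0 to 42.7% at 5 or more. Right, number of genes (y axis) by co-detection ratio with Cdkn2a (red) or Cdkn2b (blue), with the ratio of the pair, 1.12, as a dashed line.

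Of the 7 mesenchymal markers found in at least 1% of cells, 6 reached 1.1 with Cdkn2a and all 7 with Cdkn2b. Among 4512 genes found in at least 5% of thinned cells, the 5 highest co-detection ratios with Cdkn2a were those of Vim (1.43), Cyp1b1 (1.40), Ccn4 (1.37), Ccbe1 (1.36) and Hmga2 (1.36). With Cdkn2b they were those of the chemokine gene Ccl7 (1.37), Ccn4 (1.34), Cyp1b1 (1.34), the collagen gene Col12a1 (1.32) and Vim (1.31). Cyp1b1 encodes a cytochrome P450, Ccn4 a matricellular protein and Hmga2 a chromatin protein that restrains the locus in stem cells. When the expected number was set within groups of cells and summed, the ratio of the pair came closer to 1. It was 1.09 within the 4 classes of G2/M marker UMIs, 1.096 within the 4 classes of mesenchymal marker UMIs, 1.08 within the 16 combined classes and 1.06 within the 8 clusters.

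Both genes were lower in cells with markers of the cell cycle. Cells were classed by their thinned UMIs of 20 S-phase genes (such as Mcm and Pcna) and of 20 G2/M genes (such as Top2a and Mki67). Across 0, 1 to 2, 3 to 5 and 6 or more G2/M UMIs, Cdkn2a stood at 722.7, 639.3, 425.1 and 394.9 CPM. Cdkn2b stood at 242.6, 183.2, 106.7 and 110.4 CPM in the same order. The classes hold 9598, 1736, 717 and 1230 cells, and 196 cells with 5 and 210 with 6 UMIs lie beside the boundary of the highest. The intervals of the 2 highest classes overlapped for both genes and those of the other classes did not. Across the S-phase classes Cdkn2a went from 710.0 CPM in 8378 cells with 0 UMIs to 372.5 (320.1 to 431.1) in 141 cells with 6 or more. Cdkn2b went from 234.7 to 74.5 CPM (52.2 to 103.1), the latter from 36 UMIs.

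In cells with at least 6 G2/M UMIs over the 6924 cells with neither S nor G2/M UMIs, the ratio was 0.538 (0.512 to 0.564) for Cdkn2a and 0.444 (0.405 to 0.485) for Cdkn2b. Only Cdkn2b was past the 2-fold rule, which 3.10% of 8892 genes passed downward and 6.58% upward, and the medians over all genes stood at 0.989. The G2/M cells were deeper, with a median of 3725 UMIs against 3049, and deeper cells had more Cdkn2a in the whole set. Within cells of 3000 to 3999 UMIs the ratios were 0.379 (0.341 to 0.421) for Cdkn2a and 0.371 (0.305 to 0.448) for Cdkn2b. Both were more than 2-fold lower there, but how many of all genes passed the rule in that window was not counted. In the 141 S-phase cells over cells without cycling UMIs the ratios were 0.507 (0.436 to 0.588) and 0.299 (0.209 to 0.415), and again only Cdkn2b passed the rule, as did 3.83% of 9175 genes downward and 8.70% upward. G2/M cells still gave a Cdkn2a UMI in 38.5% (35.8 to 41.3) and a Cdkn2b UMI in 14.8% (12.9 to 16.9) of thinned cells, against 57.8% and 29.4% in cells without cycling UMIs.

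Of 5 other CDK inhibitors measured in the G2/M cells, 3 were higher past the rule and none lower. Cdkn2d, whose p19Ink4d is known to peak in S and G2, stood at 131.2 CPM against 26.0, a ratio of 5.05 (4.50 to 5.67). Cdkn2c had 2.99 (2.44 to 3.67) and Cdkn3 66.8 (43.4 to 108.1). Cdkn1a had 1.16 (1.04 to 1.29) and Cdkn1b 1.62 (1.45 to 1.796), both short of 2-fold. In the cyclin D, CDK4/6, Rb and E2F group, 6 of 16 measured genes were higher past the rule and none lower, with a median of 1.34. E2f8 had 43.0 (26.0 to 75.6), the Rb relative Rbl1 6.31 (5.05 to 7.88) and Ccne2 4.68 (3.15 to 6.94), and E2f7 was counted at 50 UMIs against 1. In the S-phase cells 8 of 17 measured genes of this group and 2 of 5 CDK inhibitors were higher past the rule, and none lower. The genes of the kinases that INK4 proteins bind stayed within 2-fold: Cdk4 had 1.28 (1.20 to 1.36) and Cdk6 0.860 (0.791 to 0.933). None of the 7 Arf and p53 genes passed, and Mdm2, the partner of p19Arf, had 0.857 (0.717 to 1.02).

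The next counts are to be read beside the 6.58% of all genes higher and 3.10% lower in this comparison. Of 15 measured repressors of the locus, 2 were higher past the rule in G2/M cells and 1 lower. Ezh2, the Polycomb methyltransferase, had 3.40 (3.07 to 3.75) and Dnmt1, the maintenance DNA methyltransferase, 3.38 (2.93 to 3.90), whereas Hmga2 had 0.257 (0.226 to 0.292). All 7 measured mesenchymal markers were lower in these cells too, with a median ratio of 0.295. Among cells with 0 mesenchymal UMIs Hmga2 had 0.618 (0.515 to 0.737) and no longer passed. None of 14 activators passed. Among 16 measured genes of the TGF-beta group 2 were lower, among them Ccn2, a matricellular growth factor gene, with 0.363 (0.332 to 0.395). Of the 10 measured senescence-linked genes 3 were higher, namely Lmnb1, Hmgb1 and Hmgb2, which are known to be lost in senescent cells. None of 5 measured locus neighbours passed, and Mtap had 0.810 (0.754 to 0.870).

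Both genes were higher in cells with mesenchymal markers. Cells were classed by thinned UMIs of 16 mesenchymal genes, of which Vim (157.4 CPM), Postn (58.8) and Col1a1 (45.1) were the most abundant and Lum was at 0. Across 0, 1 to 2, 3 to 5 and 6 or more UMIs, in 10415, 1862, 796 and 208 cells, Cdkn2a stood at 561.7, 881.5, 1210.0 and 1212.3 CPM. Cdkn2b stood at 192.2, 269.5, 305.3 and 310.0 CPM. The intervals of Cdkn2a were apart up to 3 UMIs and overlapped between the 2 highest classes, as did those of Cdkn2b. Next to the boundary lay 162 cells with 5 and 89 with 6 UMIs. In the highest class 73.6% (67.0 to 79.4) of thinned cells had a Cdkn2a UMI and 34.6% (28.2 to 41.5) a Cdkn2b UMI, against 49.4% and 23.7% without mesenchymal UMIs.

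The ratio of the highest class over cells without mesenchymal UMIs was 2.16 (2.01 to 2.31) for Cdkn2a and 1.61 (1.40 to 1.85) for Cdkn2b. Cdkn2a passed the 2-fold rule and Cdkn2b did not, and 12.2% of 9272 genes passed upward and 11.3% downward. A Cdkn2a value of that size was thus common between these cells, at percentile 88.4 of all genes. With the most abundant marker left out of each list the highest class held 43 cells instead of 208. The Cdkn2a ratio was then 1.995 (1.70 to 2.33) and that of Cdkn2b 2.002 (1.51 to 2.61), and both intervals hold 2. The classes by the full list had similar depth, with medians of 3170.5 and 3090 UMIs. Cdkn2a UMIs per Cdkn2b UMI were 3.91 (3.36 to 4.57) in the highest class and 2.92 (2.84 to 3.01) without mesenchymal UMIs. With cycling cells left out of both classes the ratios were 1.79 (1.63 to 1.96) and 1.31 (1.095 to 1.57), and neither passed, beside 11.9% of 9058 genes upward and 9.17% downward.

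**Figure D4:**
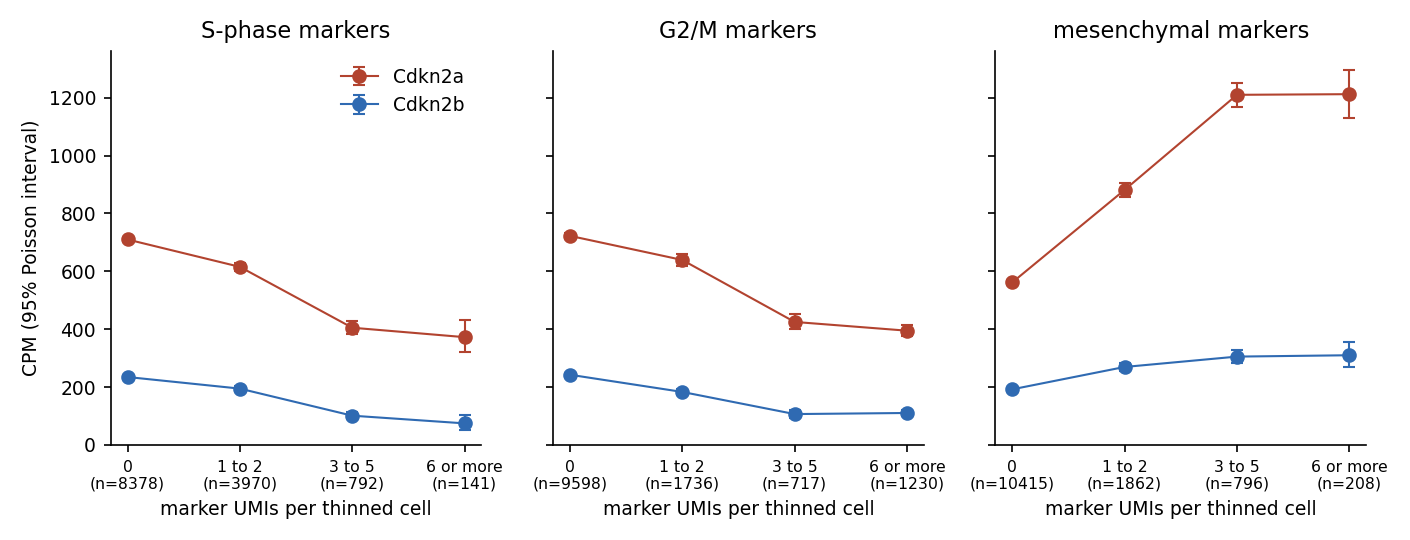
Level in CPM (y axis, 95% Poisson interval) of Cdkn2a (red) and Cdkn2b (blue) in thinned cells classed by UMIs of S-phase, G2/M and mesenchymal markers (x axis, with the number of cells). Both genes are lower in the higher cycling classes, with 394.9 and 110.4 CPM at 6 or more G2/M UMIs, and higher in the mesenchymal classes, with 1212.3 and 310.0 CPM.

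The other genes of the pathway showed no single direction in the mesenchymal marker cells. Cdkn1a, a p53 target, was at 5.82 CPM against 88.4, a ratio of 0.0659 (0.0179 to 0.169) from 4 UMIs, and Cdkn3 had 0.220 (0.0265 to 0.799) from 2 UMIs. Cdkn2c was higher with 2.29 (1.37 to 3.63). Of 13 measured genes of the Rb group, Ccnd1 alone passed, downward, with 50.9 CPM against 240.7, a ratio of 0.212 (0.147 to 0.295). Of 7 Arf and p53 genes 2 were lower. Trp53 had 0.341 (0.176 to 0.598), and Ctbp1, a corepressor that p19Arf binds, 0.442 (0.293 to 0.641). Among the 17 measured repressors 2 were higher and 2 lower, shares close to the 12.2% and 11.3% of all genes. Hmga2 stood at 1065.3 CPM against 51.0, a ratio of 20.9 (19.1 to 22.8), and Tbx3, a T-box repressor of p19Arf, had 7.14 (4.17 to 11.6). Tbx2 had 1 UMI in the mesenchymal cells and Ezh1 had 0.445 (0.178 to 0.922). Of the 14 activators only Myc passed, downward, with 0.399 (0.228 to 0.650).

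In the TGF-beta group 8 of 16 measured genes were higher past the rule in the mesenchymal cells and 3 lower, with a median of 1.91 beside 1.01 over all genes. Ccn2 had 9.90 (9.24 to 10.6), Id3 3.58 (3.32 to 3.86) and the ligand gene Tgfb2 2.57 (2.15 to 3.06). Those lower were the receptor gene Tgfbr1 with 0.410, Tgfbi with 0.397 and Tgif1 with 0.469. Of 13 measured senescence-linked genes 4 were higher and 5 lower. Mmp3 had 39.4 (16.8 to 90.2), Mmp10 8.21 (4.41 to 14.3), Serpine2 5.41 (2.51 to 10.4) and Ccl2 3.33 (3.11 to 3.57), while Igfbp3 had 0.0551 (0.0384 to 0.0767). The 5 lower genes include Lmnb1, Hmgb1 and Hmgb2, and 18 of 20 G2/M markers were lower in these cells as well. With cycling cells left out of both classes the counts were 5 higher and 2 lower, and none of those 3 genes passed. Of 5 measured neighbours Hacd4 was higher with 2.51 (2.05 to 3.05), and Mtap had 1.13 (0.967 to 1.31).

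When the classes were crossed, the relation of Cdkn2a to cycling markers was not the same at every mesenchymal level. With 6 or more mesenchymal UMIs, 24 cells with 1 to 2 G2/M UMIs had more Cdkn2a than 179 cells with 0. The levels were 1618.4 CPM (1347.1 to 1928.2) and 1158.4 (1073.2 to 1248.6). With 3 or more mesenchymal UMIs they were 1337.6 and 1211.2 CPM, and with 1 to 2 they were 932.8 and 923.3, with overlapping intervals. Lower levels were seen in the higher G2/M classes. Among cells with 0 mesenchymal UMIs the G2/M ratio was 0.586 (0.555 to 0.618) for Cdkn2a and 0.469 (0.425 to 0.517) for Cdkn2b, beside 2.06% of 8800 genes past the rule downward and 6.70% upward. Only 3 cells had 6 or more UMIs of both lists. Their 15 Cdkn2a UMIs gave a ratio of 1.05 (0.586 to 1.76) against mesenchymal marker cells without cycling UMIs, an interval that holds 1. Thinned to 2500 UMIs instead, 19 such cells gave 0.639 (0.493 to 0.815), and other settings gave values down to 0.416, the last from 3 cells. With 3 or more UMIs of both lists there were 48 cells, at 932.9 CPM Cdkn2a (804.3 to 1076.3) and 163.8 CPM Cdkn2b (112.7 to 230.0). The 603 cells with 3 or more mesenchymal and no cycling UMIs stood at 1196.7 (1149.1 to 1245.7) and 334.1 CPM (309.2 to 360.5), with intervals apart for both genes. For Cdkn2a the 48 cells were also above the 5254 cells with neither kind of marker (634.9 CPM, 622.8 to 647.2). For Cdkn2b the intervals of these sets overlapped (229.3 CPM, 222.0 to 236.8, in the 5254 cells).

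Cells with both epithelial and mesenchymal UMIs lay between. No doublets were removed, and whether any of these cells were doublets was not tested. Of the cells with 3 or more mesenchymal UMIs, 929 had 0 to 2 UMIs of the 8 epithelial markers (such as Epcam and Krt5) and stood at 1242.9 CPM Cdkn2a (1204.1 to 1282.6). The 73 cells with 3 to 11 epithelial UMIs stood at 819.5 CPM (711.7 to 939.1), and Cdkn2b at 281.1 (219.5 to 354.6) against 308.6 (289.4 to 328.7), where the intervals overlapped. Along the epithelial markers, Cdkn2a went from 1026.2 CPM in 2826 cells with 0 to 2 UMIs to 405.3 in 894 cells with 12 to 23. Cdkn2b went from 277.7 to 164.3 CPM. The 2826 cells had a median of 1 mesenchymal UMI and the 894 cells a median of 0, and their median depths were 3277 and 2865 UMIs. Whether the epithelial markers had a relation of their own was not tested. Along the 12 markers of squamous differentiation Cdkn2a was 768.7, 594.4, 578.2 and 616.1 CPM at 0, 1 to 2, 3 to 5 and 6 or more UMIs. Only the cells with 0 UMIs stood apart, and the intervals of the other classes overlapped. Of the 5 measured squamous markers 4 were lower past the rule in the mesenchymal marker cells. Along the 8 interferon genes Cdkn2a was 588.1 CPM at 0 UMIs and 984.3 at 6 or more. The interferon genes were themselves higher in the mesenchymal marker cells, 4 of 6 past the rule.

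The cells were grouped into 8 clusters with both members and all pathway genes held out. Cluster 5 (1962 cells, led by Ccn5 and Grem1, with 13 of 16 mesenchymal markers at least 1.5-fold over other cells) was called mesenchymal-like. It had the highest level of both genes, 1203.3 CPM Cdkn2a (1177.3 to 1229.7) and 313.6 CPM Cdkn2b (300.4 to 327.2). For Cdkn2a there followed cluster 8 (led by Ly6c1 and Krt7) with 967.4 CPM, cluster 4 (Ch25h and Prl2c2) with 790.4, cluster 2 (Wfdc18 and Ucp2) with 628.0 and cluster 6 (Ltf and Gabrp) with 588.3. Cluster 3 (Ccna2 and Ube2c, the cycling cells) had 367.9, cluster 1 (Krt7 and Sorbs2) 336.1 and cluster 7 (Zfpm2 and Aff2) 155.7. Neighbours in this order differed beyond their counting intervals except clusters 2 and 6. Cluster 8 also carried cycling markers, with 18 of 20 G2/M genes found in at least 5% of its cells and a summed level of 1374.0 CPM, against 4619.3 in cluster 3. Its Cdkn2a was nonetheless the second highest. Cdkn2b took another order. After cluster 5 came cluster 4 with 246.1 CPM, cluster 6 with 229.7, cluster 8 with 222.6, cluster 2 with 206.7 and cluster 1 with 198.6, each overlapping the next. Cluster 7 (117.6) and cluster 3 (103.2, 96.2 to 110.4) were lowest and overlapped.

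The clusters therefore differed in the balance of the members. Cdkn2a UMIs per Cdkn2b UMI were 1.32 (1.01 to 1.74) in cluster 7, 1.69 (1.59 to 1.805) in cluster 1, 2.56 in cluster 6, 3.04 in cluster 2, 3.21 in cluster 4, 3.57 in cluster 3, 3.84 (3.66 to 4.03) in cluster 5 and 4.35 (3.58 to 5.31) in cluster 8. Clusters 1 and 7 were also the shallowest, with medians of 1973 and 1185 UMIs. Cluster 7 had a median of 10.4% mitochondrial UMIs and 103865 CPM of Malat1, against 2.25% to 3.52% and at most 20136 CPM in the others. Within cells of 3000 to 3999 UMIs the low Cdkn2a of cluster 1 was still seen, at 391.4 CPM (359.5 to 425.3) in 419 cells, against 652.0 in cluster 2, 802.5 in cluster 4 and 1283.4 in cluster 5, while its Cdkn2b (218.2) lay beside that of cluster 2 (212.1). Cluster 3 stood at 308.7 CPM (284.3 to 334.6) there, so that at like depth it was below cluster 1, the reverse of the order over all cells. Depth also moved with Cdkn2a inside a cluster: in cluster 2 it went from 256.7 CPM (167.7 to 376.2) at 1000 to 1499 UMIs to 720.6 (685.1 to 757.4) at 4000 to 5999. Not every cluster did so: cluster 7 had 146.4, 159.6 and 142.2 CPM in the 3 bins from 1000 to 2999 UMIs, and cluster 8 had 1146.6, 908.9 and 992.5 from 2000 to 5999. Cluster 5 was highest at 3000 to 3999 UMIs and had 1013.0 CPM (902.7 to 1133.2) in its deepest cells. The lower level in G2/M cells was found within both clusters that held at least 20 of them. In cluster 5, 56 such cells stood at 824.9 CPM Cdkn2a against 1222.5, a ratio of 0.675 (0.585 to 0.775), and for Cdkn2b the ratio was 0.431 (0.302 to 0.598). In cluster 3 the ratios were 0.716 (0.603 to 0.856) and 0.667 (0.491 to 0.928).

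**Figure D5:**
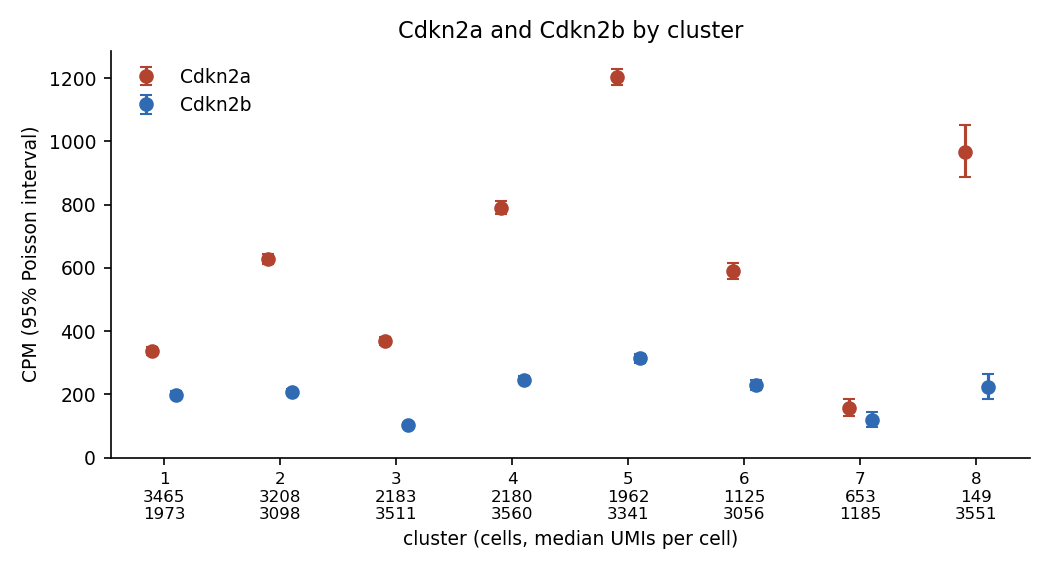
Level in CPM (y axis, 95% Poisson interval) of Cdkn2a (red) and Cdkn2b (blue) in 8 clusters (x axis, with the number of cells and the median UMIs per cell). Cluster 5 is highest for both genes, cluster 7 lowest for Cdkn2a and cluster 3 lowest for Cdkn2b.

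Over the 8 clusters the Pearson correlation of log2(CPM + 1) between Cdkn2a and Cdkn2b was 0.82. The clusters share one library and differ in depth, so this is a description. Of 6298 genes of at least 20 CPM, 271 were closer to Cdkn2a than Cdkn2b was, and 28 were closer to Cdkn2b than Cdkn2a was. The 5 closest to Cdkn2a were the homeobox gene Prrx2 (0.97), Spsb1 (0.97), Klf9 (0.96), H13 (0.95) and the actin-severing gene Gsn (0.94). Prrx2 ranged from 1.19 to 80.0 CPM over the clusters and Gsn from 30.9 to 341.1. The 5 closest to Cdkn2b were the autophagy receptor gene Sqstm1 (0.96), the ER chaperone gene Dnajb9 (0.92), the lysosomal protease gene Tpp1 (0.92), Trim12c (0.92) and Dpm1 (0.91). These lists had no gene in common, but lists of 5 among 6298 genes are too short to read that as a difference. The lists by co-detection shared Vim, Ccn4 and Cyp1b1.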

How the data were processed

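The authors deposited 1 matrix of raw UMI counts, made with Cell Ranger 8.0.1 per the file headers and with mm10 per the submitters' processing notes, which also name Scanpy 1.8.2. The labels name the 10x 3′ v2 kit. The genes of interest and all gene lists were chosen with earlier results of these data known. Cells were kept as stated above (45443280 UMIs, median 2955 per cell). CPM are summed raw UMIs of the cells named, per 1000000, with exact Poisson intervals. Shares have exact Clopper-Pearson intervals and ratios exact binomial intervals, all at 95%. These cover counting error only. Thinning drew 1500 UMIs per cell without replacement. The comparison of cells by depth was chosen after its values were seen. Clusters came from Scanpy 1.11.5 (115 genes held out, 2000 variable genes, 30 components, 15 neighbours, Leiden resolution 0.6). Scrublet called 1 of 14925 cells a doublet, which is too few to have worked, so none was removed. Named genes were the members, the genes with the largest ratios (at most 4 each way) of each pathway list past the rule, with reference members of those lists, and the 5 genes nearest each member by 2 measures of likeness. The call rule and thinning were tested on simulated data. Gene models were matched by Ensembl ID (32158 of 32287 found), and barcode and Scar reads were not used here. One gene of the TGF-beta list is not reported here.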

Additional observations from a re-analysis of the deposited data

How the results depend on the processing

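Of 116 alternative values that could differ, 79 stayed within the counting interval of the reported one and 37 moved outside it. Another 9, at equal depth with no cell filter, use the same cells and show nothing. One direction turned: the Cdkn2a cycling ratio within mesenchymal marker cells was 1.05 as reported, with an interval that holds 1. It was below 1 in all 10 other settings that gave a value, and in 5 of them the interval lay below 1. These settings are not separate checks, because they draw on the same cells and a changed set of cells also redraws the thinning. The class held 3 cells as reported and 5 without the 10% highest Scrublet scores, which only a new draw can give. The number of settings below 1 therefore does not settle the direction. Levels of Cdkn2a and Cdkn2b were 616.7 and 205.8 CPM with no cell filter, 679.7 and 214.7 with at least 1000 genes and 2000 UMIs, and 658.3 and 216.4 without the GFP and Scar rows. Shares at equal depth were 56.8% and 26.3% under the stricter filter, 54.5% and 26.5% without GFP and Scar, 39.4% and 17.9% when thinned to 1000 UMIs and 73.1% and 38.8% at 2500. The co-detection ratio was 1.18 at 1000 UMIs and 1.07 at 2500. The G2/M ratio of Cdkn2a was 0.506 without the 10% highest Scrublet scores. The mesenchymal ratio of Cdkn2a was 2.002 under the stricter filter (185 cells) and 2.01 at 1000 UMIs (57 cells). Without the most abundant markers (43 cells) it was 1.995, and that of Cdkn2b was 2.002. The Cdkn2a cycling ratio within mesenchymal marker cells was 0.437 (5 cells) without high Scrublet scores and 0.574 (3 cells) without cells over 5% Malat1. With so few cells, the filter and the new draw cannot be told apart in these values. At 2500 UMIs it was 0.639 (19 cells). Thinning to 1000 UMIs or shorter lists left no cell high in both lists.

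Other alternatives were chosen after the values by depth had been seen. In cells of 3000 to 3999 UMIs the levels were 725.0 and 229.7 CPM, the shares 60.9% and 27.7%, the G2/M ratios 0.379 and 0.371, the mesenchymal ratio of Cdkn2b 1.304, and the Cdkn2a cycling ratio 0.413 in cells without mesenchymal UMIs and 0.416 within mesenchymal marker cells. Without clusters 1 and 7, the shallowest, the levels were 713.3 and 214.8 CPM, the Cdkn2a share 58.3%, its G2/M ratio 0.480 and its cycling ratio without mesenchymal UMIs 0.532. The cause was not tested. The Cdkn2a call past 2-fold in G2/M cells depends on these depth settings. No paired analysis was possible because there is 1 matrix. The main limits are that 1 sample gives no replicate spread, that p16Ink4a and p19Arf RNA cannot be told apart, that the edit in Cdkn2a was not read, and that depth moved with Cdkn2a.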
